A study of Homo sapiens with 14 samples.

Results

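Certain places in the genome gave a peak in nearly every non-specific antibody library of this chromatin immunoprecipitation study of HSF1 and HSF2 in K562 cells. They were chosen from the 4 IgG peak lists: all IgG peaks that overlapped by at least 1 bp were merged into 58631 regions, and the 703 regions (1.2%) with a peak in at least 3 of the 4 IgG lists were kept. They are called recurrent IgG regions here. Which IgG lists hold a peak in them was fixed by this rule and is given as a description. The 8 HSF lists did not enter the rule. Peaks from HSF1 and HSF2 were nonetheless found at 689 of the 703 regions (98.0%), against 18.6% of all merged IgG regions.

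Chromatin immunoprecipitation recovers the DNA that an antibody pulls down with its protein, and sequenced tags pile up as peaks where recovery exceeds an input control. Non-specific IgG recognises no chromatin protein, so its peaks mark places where tags accumulate without a specific target. Such places are known in general from sequence that is collapsed or missing in the reference assembly, from extra copies of a segment in a cell line, and from chromatin that shears or sticks more readily. None of these was measured here. HSF1 is the main activator of genes for heat shock proteins, and HSF2 is a relative that binds the same DNA element. K562 is a human erythroleukemia line known to carry extra copies of segments of chromosomes 9 and 22 around its BCR-ABL1 fusion.

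K562 cells were either freely cycling or arrested in mitosis, and either left untreated at 37 °C or given 30 min at 42 °C. Each of these 4 conditions has 1 IgG, 1 HSF1 and 1 HSF2 library, each made from 10 pooled immunoprecipitations, and each cell state has 1 input library, labelled heat-treated. The 14 groups therefore hold 1 library each, there are no replicates, and no condition can be tested. The cycling lists were called against one input and the mitotic lists against another, so IgG and HSF lists of a cell state have their control in common. The cycling control counts 36542527 kept tags in the list of non-treated IgG and 34815679 in the 5 others.

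Libraries differed in depth and handling. Kept tags, those left after the peak caller had removed duplicates, numbered 14761560, 14567365, 2066373 and 17981369 in IgG (non-treated cycling, heat-treated cycling, non-treated mitotic and heat-treated mitotic, the order used throughout). They ranged from 6164898 to 28676943 in the HSF libraries. Non-treated mitotic IgG stood apart as the shallowest library, with 41% of its tags redundant. File headers name the alignments in one way in 5 cycling lists. The other 7 lists, the mitotic ones together with IgG of non-treated cycling cells, have another naming. Naming and cell state can therefore hardly be told apart outside that 1 library. Redundant tags were 0.0% in those 5 cycling lists and 10% to 41% in the other 7. Total tags are therefore not on one scale across the lists. Kept tags are not fully alike either. Duplicates were capped at 1 tag per position in non-treated mitotic IgG and both mitotic HSF1 lists, and at 2 in all others. The part of this cap in the ratios between libraries was not tested. Values are given as tags in peaks per 1000000 kept tags (CPM). Intervals are 95% intervals (Wilson for shares, exact Poisson for CPM) and cover counting error only.

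Recurrence went with width. Regions with a peak in 1 IgG list (55573) had a median width of 592 bp, those in 2 lists (2355) 1069 bp, those in 3 lists (522) 2521.5 bp and those in all 4 lists (181) 4435 bp. The 703 recurrent regions ranged from 410 to 47017 bp (median 2677 bp) and covered 2.99 Mb in all, each counted over its full merged extent. Bases that lay under peaks of at least 3 IgG lists came to 934.8 kb, in 960 stretches. Each held a median of 4 IgG peaks and at most 35. A wide region is built from several peaks and offers more length to overlap, so width and recurrence are tied by construction.

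Peaks were found in 610, 637, 414 and 629 of the recurrent regions in the 4 IgG lists. The list most often without a peak was the shallow non-treated mitotic one, which had none at 289 regions (41.1%). Non-treated cycling IgG had none at 93 regions, heat-treated mitotic IgG at 74 and heat-treated cycling IgG at 66. The longest list, heat-treated mitotic IgG with 41184 peaks, had 1.54% of its merged regions recur, and the shortest, non-treated mitotic IgG with 2373 peaks, had 20.4%. The middle lists, with 15758 and 4377 peaks in cycling cells without and with heat, had 3.96% and 15.3%. Leaving out the shallow library and asking for a peak in all 3 others gave 469 regions.

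As deposited, each HSF1 list had a peak at most recurrent regions. Non-treated cycling HSF1 had one at 487 of 703 (69.3%, 65.8 to 72.6), against 3.06% of all merged IgG regions. Heat-treated cycling HSF1 had one at 406 (57.8%, 54.1 to 61.4), against 3.0%. Mitotic HSF1 had one at 554 without heat (78.8%, 75.6 to 81.7; background 3.63%) and at 556 with heat (79.1%, 75.9 to 81.9; background 4.15%). The cycling lists thus had a peak at fewer of these regions than the mitotic ones, with each list at the length the authors gave it. With all HSF lists cut to the length of the shortest by score, the 4 HSF1 shares were 39.3%, 10.7%, 35.1% and 34.7%. No list then had a peak at most of the regions, and non-treated cycling HSF1 came first. The mitotic HSF1 lists were called from fewer kept tags (6164898 and 7385467) than the cycling ones (14446547 and 16735990), against a different input.

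HSF2 lists spread more widely. Non-treated cycling HSF2, a list of only 875 peaks from 28676943 kept tags, had a peak at 199 recurrent regions (28.3%, 25.1 to 31.7), against 0.897% of all merged IgG regions. Heat-treated cycling HSF2 had one at 308 (43.8%, 40.2 to 47.5; background 2.09%). Non-treated mitotic HSF2, a list of 19866 peaks, had one at 579 (82.4%, 79.4 to 85.0; background 10.3%), and heat-treated mitotic HSF2 at 390 (55.5%, 51.8 to 59.1; background 5.8%). The highest share came from the longest HSF list. The 2 deepest libraries, non-treated cycling and heat-treated mitotic HSF2, had the lower share of their cell state. At equal length the 4 HSF2 shares were 28.3%, 14.5%, 44.4% and 37.1%, which turns the order of the cycling pair. The lists also differed in the deposited FDR. HSF1 had a peak with an FDR of at most 5% at 217, 406, 531 and 516 recurrent regions. For HSF2 the counts were 5, 308, 579 and 232, so nearly all of the non-treated cycling HSF2 share rests on peaks with a higher FDR.

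In all 8 HSF lists the share climbed with the number of IgG lists, also below the limit of 3. For non-treated cycling HSF1 it went from 1.65% of regions in 1 IgG list through 16.6% in 2 and 62.1% in 3 to 90.1% in all 4. For heat-treated mitotic HSF1 it went from 2.51% through 20.6% and 72.6% to 97.8%. Non-treated cycling HSF2 had the lowest shares, 0.36%, 5.39%, 23.8% and 41.4%, and non-treated mitotic HSF2 started highest, 8.41%, 33.5%, 77.2% and 97.2%. Regions just outside the limit (2 IgG lists) had shares of 5.39% to 33.5% over the 8 HSF lists, and those just inside it (3 lists) 23.8% to 77.2%.

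**Figure D1:**
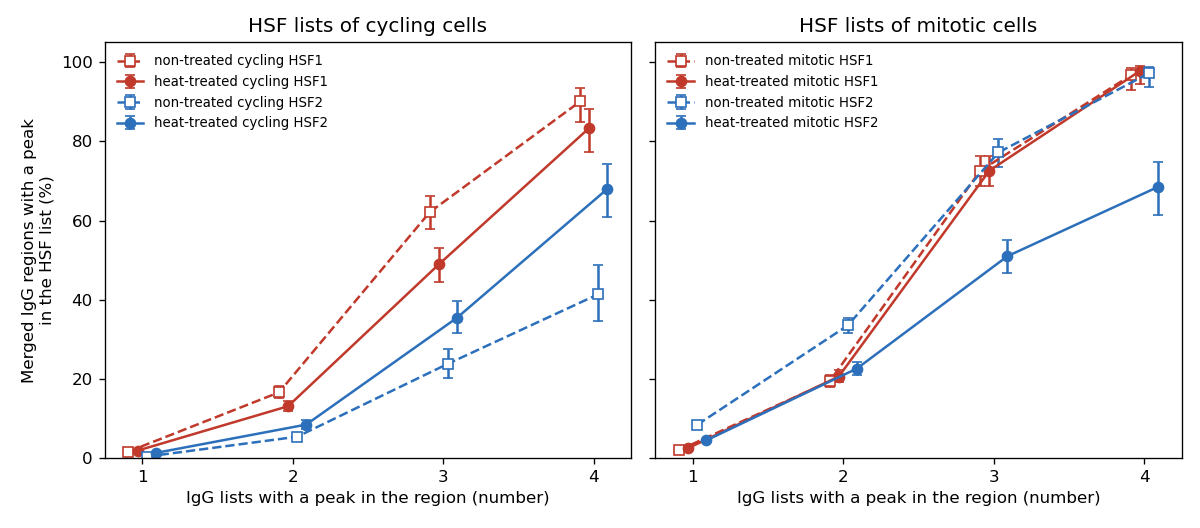
Share of merged IgG regions with a peak in each HSF list (y axis, %) by the number of IgG lists with a peak there (x axis), for HSF lists of cycling (left) and mitotic cells (right); bars are 95% Wilson intervals and points are shifted sideways for legibility. All 8 lines climb from left to right, non-treated cycling HSF2 from 0.36% to 41.4% and non-treated mitotic HSF2 from 8.41% to 97.2%.

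The contrast between recurrent and other regions was also present within width classes. Among regions of at most 1 kb, where recurrent regions number 95, non-treated mitotic HSF1 had a peak at 71.6% of recurrent regions (61.8 to 79.7) and at 1.41% of regions in 1 or 2 IgG lists. Non-treated cycling HSF2 had one at 10.5% (5.82 to 18.3) and at 0.276%. In the widest class, over 5 kb, non-treated mitotic HSF1 had a peak at 94.5% of 200 recurrent regions and at 65.2% of the 112 others, a smaller gap than in the narrow class. For heat-treated mitotic HSF2 the gap in percentage points was larger in the widest class, 71.0% against 17.9%, than at up to 1 kb, 28.4% against 3.71%. Within each width class, every HSF list had a higher share at recurrent regions than at the others, but width still varied inside a class.

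Summits also lay close together in narrow recurrent regions, where the width itself keeps distances short. In regions of at most 2 kb with a single peak in both lists compared, the median distance between an IgG summit and an HSF summit was 4.5 to 69 bp over the 32 pairs of an IgG and an HSF list. Among the 6 pairs of IgG lists it was 8 to 65.5 bp. Summits within 100 bp made up 61.5% to 84.5% of regions in the former pairs and 58.4% to 79.3% in the latter. The distances from HSF to IgG summits thus covered almost the same range as those between IgG summits. Distances were not computed at other regions, so the closeness is not shown to be particular to recurrent ones. The pair of heat-treated mitotic IgG and non-treated mitotic HSF2 had the lowest median (4.5 bp over 188 regions), and non-treated mitotic IgG and non-treated cycling HSF2 the highest (69 bp over 26 regions).

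A recurrent region had a peak in a median of 5 of the 8 HSF lists, and a region in all 4 IgG lists in a median of 7. All 8 HSF lists had a peak at 85 recurrent regions (12.1%, against 0.162% of all merged IgG regions). At 52 of these, all 4 IgG lists had one too. Peaks in 7 HSF lists were found at 112 regions, in 6 at 110, in 5 at 117, in 4 at 103, and in 1 to 3 at 162 together.

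Regions that the HSF lists left empty were few, 14 in all, each in exactly 3 IgG lists. The best covered was chr2:109815304-109816645, with 11.3 CPM in non-treated cycling IgG (166 tags), 13.8 in heat-treated cycling IgG (201 tags) and 14.5 in non-treated mitotic IgG (30 tags). The next were chr20:55933117-55934414 (median 7.01 CPM over its 3 IgG lists) and chr13:90882269-90884251 (3.59 CPM). The deposited folds over input at these 3 regions were 0.13 to 2.99, and the other 11 regions had median IgG levels of 0.813 to 1.83 CPM.

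Where a peak was called, HSF and IgG libraries had median levels of the same order at the recurrent regions. The median level was 4.00, 3.98, 5.81 and 7.29 CPM in IgG, 4.91, 5.05, 5.35 and 5.82 CPM in HSF1, and 6.28, 4.78, 6.83 and 6.25 CPM in HSF2, each over the regions with a peak in that list. Within a library the spread was far larger than between libraries: in non-treated cycling HSF1, for example, levels ran from 0.831 to 576 CPM. The regions behind each median differ, so a direct comparison needs the regions with a peak in both lists.

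**Figure D2:**
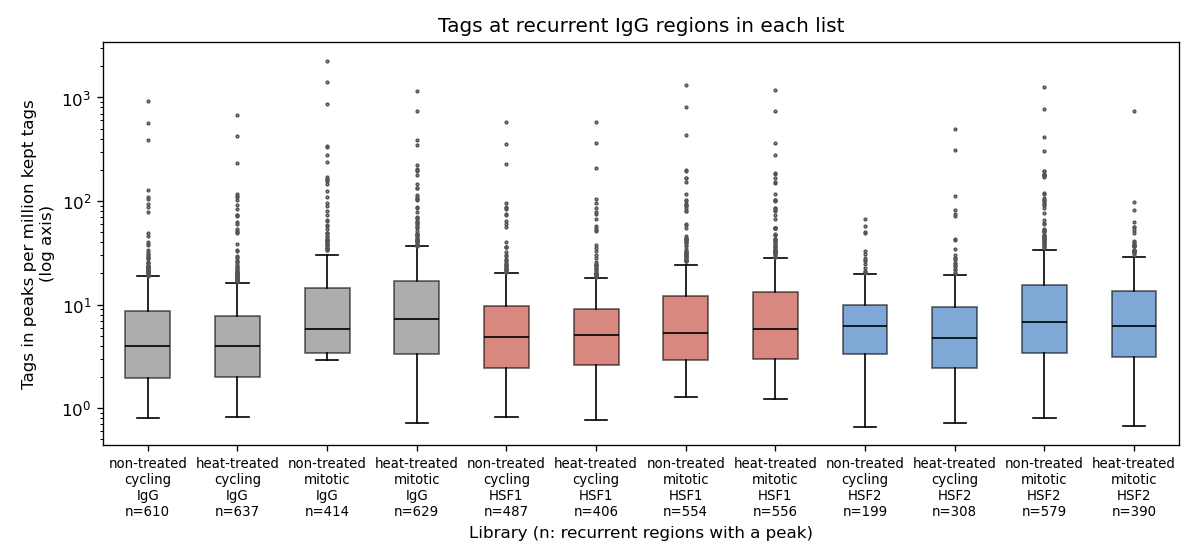
Tags in peaks per 1000000 kept tags (y axis, log scale) at recurrent IgG regions in each of the 12 libraries (x axis; n is the number of regions with a peak); boxes span the quartiles with the median as a line, whiskers reach 1.5 interquartile ranges and dots are regions beyond. Medians lie between 3.98 and 7.29 CPM in all 12 libraries.

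Where IgG and HSF1 of the same cells both had a peak, the median ratio of HSF1 to IgG CPM was 0.92 without heat (439 regions) and 0.899 with heat (384 regions) in cycling cells. In mitotic cells it was 0.905 (366 regions) and 0.705 (511 regions). For HSF2 the ratios were 0.913 (188 regions), 0.87 (296), 1.12 (343) and 0.695 (382). By kept tags, 7 of the 8 ratios were under 1, the exception being non-treated mitotic HSF2 beside the shallow IgG library. The IgG level is tied to the rule that chose these regions, and a region enters only with a peak in both lists. The ratios, also those per kb below, are therefore a description and no measure of HSF binding. The direction depended on the library size used. Divided by total tags, the ratios were 1.33, 0.899, 1.01 and 0.646 for HSF1 and 1.32, 0.87, 1.51 and 0.811 for HSF2. Both non-treated cycling pairs and non-treated mitotic HSF1 then turned to above 1. In the non-treated cycling pairs, redundant tags were 31% of the IgG total and 0.0% of both HSF totals, so these totals are not alike. HSF exceeded IgG by more than 3 times per kb of peak at 1 region in non-treated cycling HSF1, at 1 in heat-treated mitotic HSF1 and at none in the other 6 pairs.

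Per kb of peak, the corresponding ratios were 0.971, 0.932, 0.55 and 1.10 for HSF1 and 0.777, 0.905, 0.452 and 0.707 for HSF2. The low values of non-treated mitotic cells come with a high IgG density: the shallow IgG library had a median of 7.08 CPM per kb, against 2.10, 2.10 and 2.56 in the other IgG libraries. Its smallest recurrent peak was 2.90 CPM, against 0.723 to 0.824 in the other 3, so weaker peaks are not in that list at all.

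Recurrent regions made up a visible part of each HSF list. They held 15.1%, 8.52%, 25.5% and 23.2% of HSF1 peaks and 28.6%, 9.36%, 4.91% and 5.94% of HSF2 peaks. The share of the tags in peaks was larger, 41.7%, 31.9%, 48.2% and 48.3% for HSF1 and 57.8%, 35.6%, 32.6% and 36.0% for HSF2. Of the bases in peaks, the peaks there had 30.0%, 18.8%, 30.3% and 30.1% for HSF1 and 50.2%, 20.6%, 14.1% and 20.0% for HSF2. Of all kept tags, these regions held between 0.162% (non-treated cycling HSF2) and 1.04% (non-treated mitotic HSF2) in the HSF libraries and 0.611% to 1.18% in IgG.

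HSF peaks inside the regions were long and had many tags but a low fold over input. In heat-treated cycling HSF1 the median peak had 61 tags and a fold of 2.10 inside, and 17 tags and a fold of 3.24 elsewhere. Its median length was 1475 bp inside and 679 bp elsewhere, so per kb the gap was smaller, 2.00 against 1.52 CPM. Peaks inside had the greater median length in all 8 HSF lists. The median fold was lower inside than outside in all 8 HSF lists, from 0.87 against 1.14 (non-treated mitotic HSF1) to 2.91 against 4.07 (non-treated cycling HSF2). The fold is the authors' own value for each peak, does not allow for library depth, so folds are compared only within a list and not between lists.

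Which peaks of a list stood highest depended on the measure. Among the 100 peaks with the most tags, not divided by peak length, recurrent regions held 60, 65, 49 and 52 in HSF1 and 75, 68, 67 and 86 in HSF2. Among the 100 with the highest score (minus 10 times log10 of the p-value), they held 72, 10, 77 and 57 in HSF1 and 75, 22, 87 and 78 in HSF2. Among the 100 with the highest fold, they held 11, 0, 4 and 3 in HSF1 and 23, 1, 21 and 17 in HSF2. The heat-treated cycling lists of both factors stood apart by score, with 10 and 22 against 57 to 87 in the other 6 lists. By tags they lay within the range of the others. By fold they had 0 and 1, but both mitotic HSF1 lists were also low, with 4 and 3.

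**Figure D3:**
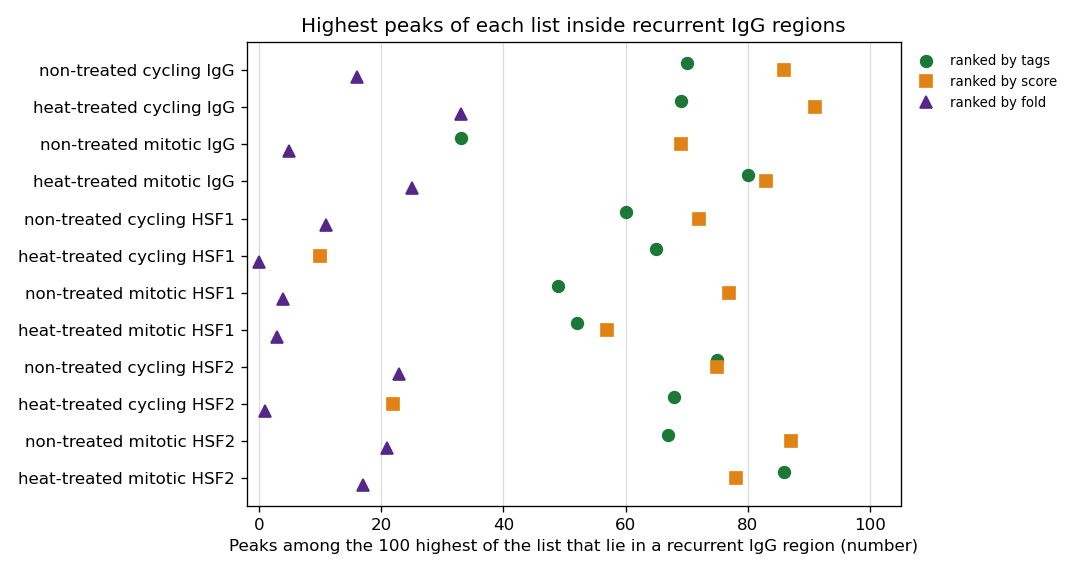
Number of peaks (x axis) among the 100 highest of each list (y axis) that lie in a recurrent IgG region, ranked by tags (circles), score (squares) or fold over input (triangles), with symbols shifted up or down for legibility. Ranked by fold, 0 of 100 peaks of heat-treated cycling HSF1 and 1 of 100 of heat-treated cycling HSF2 do; ranked by tags, 65 and 68 do.

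In the heat-treated cycling lists, few of the peaks with a fold of at least 10 lay at recurrent regions. Of the 285 peaks of heat-treated cycling HSF1 with a fold of at least 10 (4.42% of its list), none lay in a recurrent region, which allows a share of up to 1.05% by the limit of 3 counts and of up to 1.33% by the upper Wilson bound. Of the 156 such peaks of heat-treated cycling HSF2 (3.62% of its list), 2 did (1.28%, 0.352 to 4.55). Among all peaks of these 2 lists, 8.52% and 9.36% did. Non-treated mitotic HSF2 had 2 of its 4 such peaks there (0.0201% of its list) and heat-treated mitotic HSF2 2 of 10 (0.121%). Those are 50.0% (15.0 to 85.0) and 20.0% (5.67 to 51.0), on few peaks, against 4.91% and 5.94% of all peaks of these mitotic lists. The single such peak of non-treated cycling HSF1 (0.0212%), the 6 of heat-treated mitotic HSF1 (0.12%) and the 5 of non-treated cycling HSF2 (0.571%) all lay elsewhere. Non-treated mitotic HSF1 had none (0.0% of its list). The limit of 10 applies within each list, and since the fold does not allow for depth, these counts are not ranked between lists.

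These 6 HSF2 peaks fell in 4 recurrent regions (0.569% of 703, against 0.138% of all merged IgG regions), and all 4 regions had a peak in all 12 lists. At chr17:31148932-31150250 (1319 bp) the level was 1.29, 2.82, 16.9 and 25.4 CPM in IgG, 1.25, 1.85, 17.5 and 18.3 CPM in HSF1, and 0.976, 3.29, 23.3 and 10.2 CPM in HSF2. Every mitotic library lay above every cycling library, with 10.2 CPM in the lowest mitotic one (289 tags) and 3.29 CPM in the highest cycling one (64 tags). Such a separation was not particular to this region. Of the 52 regions with a peak in all 12 lists, 24 had no overlap between the cell states by kept tags. With total tags as library size 16 had none, and per kb of peak (kept tags) also 16. The deposited fold was 14.52 in heat-treated cycling HSF2, 16.9 in non-treated mitotic HSF2, 15.6 in heat-treated mitotic HSF2 and 23.63 in heat-treated mitotic IgG, values from lists of unlike depth that are not ranked here.

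The region chr1:156185803-156187002 (1200 bp) had the same pattern. Its level was 5.56, 11.4, 41.6 and 55.6 CPM in IgG, 4.01, 7.17, 40.7 and 41.2 CPM in HSF1, and 5.23, 11.2, 51.6 and 26.8 CPM in HSF2, again with no overlap between cycling and mitotic libraries. The fold past the limit was that of non-treated mitotic HSF2, 10.74. At chr20:26188380-26190982 (2603 bp) the level was 18.3, 26.2, 80.3 and 110 CPM in IgG, 14.1, 19.3, 80.1 and 80.0 CPM in HSF1, and 13.9, 25.4, 95.7 and 56.2 CPM in HSF2. Cycling and mitotic libraries did not overlap there either, and heat-treated cycling HSF2 had the one fold past the limit, 11.75.

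At the fourth region, chr19:23253762-23254668 (907 bp), tags were few and the cell states overlapped. The level was 1.42, 1.92, 2.90 and 4.23 CPM in IgG, 2.01, 2.09, 1.78 and 3.25 CPM in HSF1, and 1.15, 1.54, 3.59 and 3.07 CPM in HSF2. Heat-treated mitotic HSF2 had the fold past the limit, 10.89. Non-treated cycling IgG shares the alignment naming of the mitotic libraries, and its level was among the cycling ones at all 4 regions. That is 1 library at regions chosen by fold, and the part of naming or input in these levels was not tested.

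**Figure D4:**
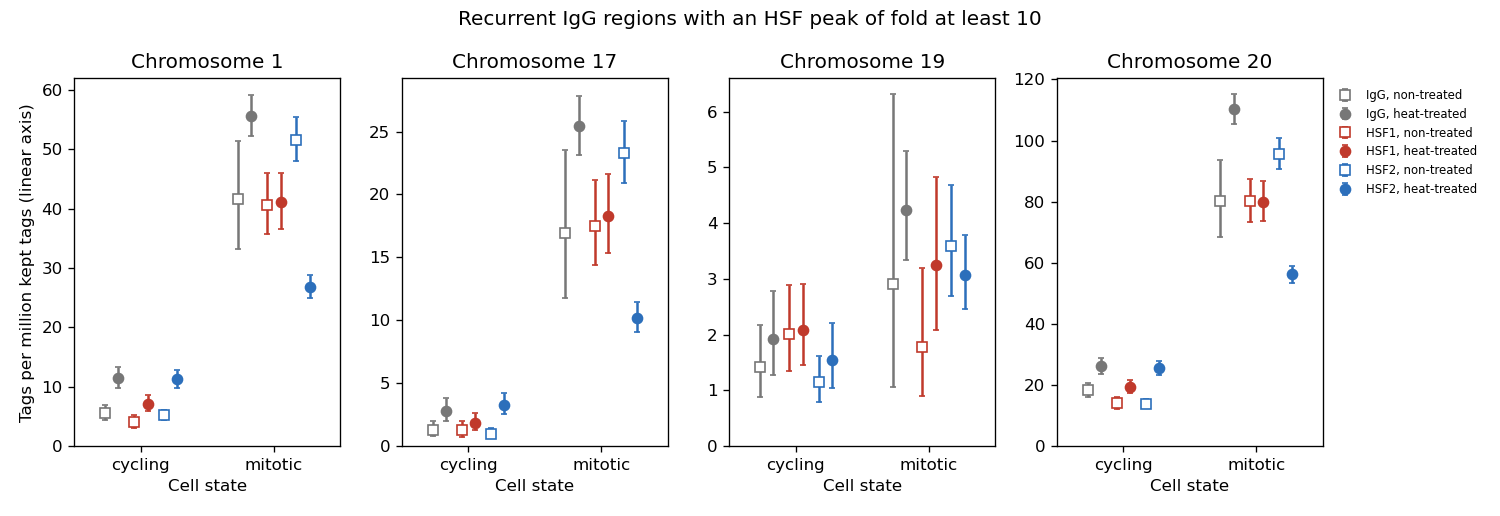
Tags per 1000000 kept tags (y axis, linear, own scale in each panel) in the 12 libraries at the 4 recurrent IgG regions with an HSF peak of fold at least 10, by cell state (x axis); symbols give the antibody and treatment and bars are 95% exact Poisson intervals for counting error. On chromosomes 1, 17 and 20 every mitotic library lies above every cycling one, and on chromosome 19 the ranges meet (1.15 to 2.09 CPM cycling, 1.78 to 4.23 CPM mitotic). By kept tags, the cell states do not overlap at 24 of the 52 regions with a peak in all 12 lists.

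The 52 regions with a peak in all 12 lists lay on 16 chromosomes and were 832 to 31001 bp wide. Each includes a non-treated cycling HSF2 peak. That list had an FDR of at most 5% at only 4 of its 75 regions in all 4 IgG lists. The median CPM of the 6 mitotic libraries exceeded that of the 6 cycling ones at 48 of the 52 regions, and by more than 3 times at 9. The median ratio over all 52 was 1.81. With total tags as library size it was 1.38, with mitotic libraries higher at 41 regions, and per kb of peak (kept tags) it was 1.49, with mitotic libraries higher at all 52. The ratio ran from 0.733 at chr5:69811137-69818287, where cycling libraries had 2.96 to 9.50 CPM and mitotic ones 3.96 to 11.6, to 11.4 at the chromosome 17 region. After it came chr15:21312270-21318504 (6.91 times), with 1.63 to 3.57 CPM in cycling and 11.3 to 24.9 in mitotic libraries. The others above 3 times include the chromosome 1 and 20 regions just described, chr15:20305228-20311678 (4.70 times) and chr16:33293487-33295567 (3.24 times). Cell state goes with the input used and nearly with the alignment naming, and their part in these ratios was not tested.

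Over all recurrent regions with a peak in both libraries of a pair, the mitotic to cycling ratio varied with the antibody and with the scale. In heat-treated IgG it was a median of 1.77 times by CPM over 563 regions and 1.22 times per kb. In HSF1 it was 1.22 times without heat (421 regions) and 1.64 times with heat (354 regions), or 1.41 and 1.5 times per kb. In HSF2 it was 1.74 (185 regions) and 1.52 (208 regions), or 1.46 and 1.01 per kb. In non-treated IgG, with its shallow mitotic library, it was 1.25 by CPM and 2.54 per kb over 321 regions. With total tags as library size the non-treated HSF1 ratio turned to 0.807, and the others were 1.07 and 1.37 in IgG, 1.16 in heat-treated HSF1, and 1.39 and 1.38 in HSF2. Redundant tags were 0.0% of the total in the cycling and 34% in the mitotic non-treated HSF1 list.

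Between treatments, the median ratio of levels lay between 0.89 and 1.25 by kept tags. In cycling cells the heat-treated to non-treated ratio was 0.95 in IgG (544 regions), 0.971 in HSF1 (339 regions) and 1.15 in HSF2 (139 regions). In mitotic cells it was 1.25 in IgG (340 regions), 1.03 in HSF1 (493 regions) and 0.89 in HSF2 (363 regions). Per kb of peak the ratios were 0.975, 0.937 and 1.17 in cycling cells and 0.473, 0.972 and 0.769 in mitotic cells, so those of mitotic IgG and HSF1 turned to below 1. With total tags as library size they were 1.37, 0.971 and 1.15 in cycling and 1.63, 1.10 and 1.01 in mitotic cells, and those of cycling IgG and mitotic HSF2 turned to above 1. Redundant tags were 31% of the total in non-treated and 0.0% in heat-treated cycling IgG. In mitotic HSF2 they were 20% without and 10% with heat.

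Presence of a peak was also compared between treatments, in lists of unlike length. Of the 703 regions, HSF1 in cycling cells had a peak at 339 in both treatments, at 148 only without heat and at 67 only with heat, and in mitotic cells at 493, 61 and 63. HSF2 in cycling cells had one at 139, 60 and 169, and in mitotic cells at 363, 216 and 27. The HSF2 lists without and with heat hold 875 and 4315 peaks in cycling cells and 19866 and 8270 in mitotic cells. These splits were not computed over all merged IgG regions, so they are not shown to be particular to the recurrent ones.

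Chromosome 22 held 159 of the 703 recurrent regions (22.6%), against 2.31% of all merged IgG regions, and 41.8% of the bases covered. That was 3.10 regions per Mb of the chromosome's extent in the lists, and 11.8% of its merged IgG regions recurred. Chromosome 21 followed with 0.457 per Mb, and chromosome 13 had the fewest, 5 regions or 0.0435 per Mb. In number, chromosome 1 came second with 62 regions (8.82%, against 16.2% of merged regions), then chromosomes 4 and 7 with 47 each. On chromosome Y, 9.68% of the 186 merged regions recurred (18 regions).

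**Figure D5:**
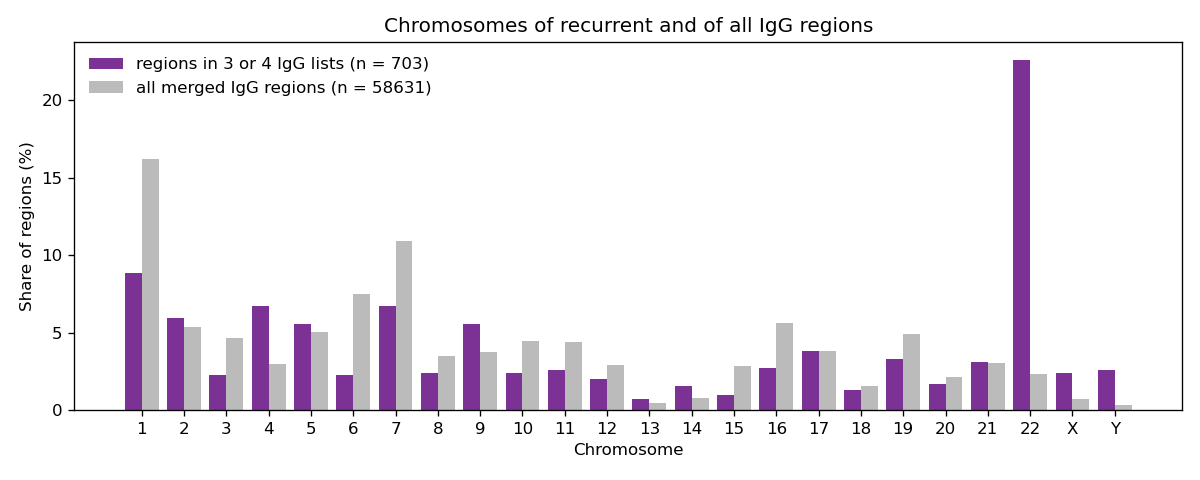
Share (y axis, %) of the 703 recurrent IgG regions (purple) and of all 58631 merged IgG regions (grey) on each chromosome (x axis). Chromosome 22 holds 22.6% of the recurrent and 2.31% of all merged regions.

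Most of the chromosome 22 regions formed 1 run. With neighbours joined across gaps of up to 500 kb, the 703 regions fell into 290 runs, of which 204 were single regions and 8 had 10 or more regions (239 regions, 34.0%). The largest run, chr22:18691004-23661681, held 145 regions in 4.97 Mb, which covered 24.0% of its length, and 34 of them were in all 4 IgG lists. It contains the widest region of all, chr22:21975999-22023015 (47017 bp). Tags there came to 30.0, 26.1, 59.0 and 134 CPM in IgG, 24.6, 21.3, 80.8 and 85.8 CPM in HSF1 and 102.5 and 63.2 CPM in mitotic HSF2, with no cycling HSF2 peak. By CPM, cycling libraries were the lower ones at this region, 21.3 to 30.0 CPM against 59.0 to 134 CPM. Their lists place 1 or 2 peaks there, and the mitotic lists 4 to 20. Per kb of peak the ranges overlapped, 2.25 to 2.65 CPM in cycling and 2.13 to 3.21 CPM in mitotic libraries, besides 6.13 in the shallow IgG library.

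The median top fold per region of this run, each on its own list's scale, was 1.71, 1.57, 0.57 and 3.00 in IgG, 1.60, 1.71, 1.04 and 1.25 in HSF1, and 2.46, 2.10, 2.24 and 3.28 in HSF2. All 8 HSF lists took part: of the 159 regions on the chromosome, 119, 88, 137 and 137 had an HSF1 peak and 57, 64, 148 and 116 an HSF2 peak. Without chromosome 22, the share of recurrent regions with an HSF2 peak was 79.2% and 50.4% in mitotic cells without and with heat, and the other 6 shares lay within their intervals. Runs on chromosome 9 were shorter. Among them, chr9:45728567-46391598 held 6 regions covering 8.77 kb, and chr9:133965674-134155803 held 5 regions covering 45.2 kb. Copy number was not measured, and its part in the runs on chromosomes 9 and 22 was not tested.

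The other runs of 10 or more regions were smaller. They were chr5:68925645-70530478 and chr21:9542649-10604862 with 16 regions each, chr1:16839427-17281186 with 15, chr1:142631777-143493155 with 14, chr4:190766995-191014024 with 13, and chr4:9230801-9368312 and chrY:13262239-13748739 with 10 each. The chromosome 21 run had the largest part in all 4 IgG lists, 8 of 16 regions, and the last named pair had none. In the run at the end of chromosome 4 the median region had 12.1, 13.5, 21.3 and 10.8 CPM in IgG, or 4.12, 4.35, 8.52 and 2.57 CPM per kb. Non-treated mitotic HSF2 had a peak at all 13 regions, and 8 of them lay under 1 peak of 26387 bp (chr4:190987811-191014197, 2624 tags, 178 CPM). Per kb that peak had 6.73 CPM, below the shallow IgG library's median region and above those of the other 3 IgG libraries. Heat-treated mitotic IgG and HSF2 had a peak at only 4 and 5 of these 13.

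The region with the most tags was chr1:563972-570846 (6875 bp), near the start of chromosome 1. It had 915, 679, 2263 and 1161 CPM in IgG, 576, 580, 1318 and 1186 CPM in HSF1, and 499, 1257 and 744 CPM in the heat-treated cycling, non-treated mitotic and heat-treated mitotic HSF2 libraries. Non-treated cycling HSF2 had no peak there. IgG exceeded the HSF libraries of the same cells except in heat-treated mitotic cells, where the intervals of IgG (1145 to 1177 CPM) and HSF1 (1162 to 1211 CPM) overlapped. The deposited folds over input were low beside these levels, 0.35 to 1.30.

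The 10 regions with the highest level in their lowest IgG library included this region and chr5:134258511-134264603. The latter had 561, 422, 1423 and 735 CPM in IgG, 354, 363, 815 and 732 CPM in HSF1, and 314 and 779 CPM in heat-treated cycling and non-treated mitotic HSF2. At chr10:42596531-42602534 the level was 387, 234, 856 and 349 CPM in IgG and 210 to 438 CPM in HSF1, with HSF2 present in non-treated mitotic cells alone (414 CPM). In these 3 regions the shallow IgG library had the highest level of all libraries, and folds stayed at or under 1.55.

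Levels at other regions of this group varied less across libraries. At chr1:143276684-143284772, which has a peak in all 12 lists, levels ran from 67.5 CPM (64.5 to 70.6) in non-treated cycling HSF2 to 110 CPM (96.5 to 126) in non-treated mitotic IgG. At chr4:49511701-49523151, which has a peak in 10 lists, they ran from 74.3 CPM in heat-treated cycling HSF2 to 104 CPM in heat-treated mitotic IgG. A further set, chr5:79945383-79948743, chr5:99381581-99390777 and chr11:10529162-10532289, had 101 to 118 CPM in heat-treated cycling IgG, 281 to 339 in non-treated mitotic IgG and 179 to 203 in heat-treated mitotic IgG. No peak was listed at them in non-treated cycling cells with any antibody.

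The remaining regions of the group were wide. At chr19:36758956-36801007 (42052 bp) levels were 110, 113, 124 and 198 CPM in IgG, 96.6, 52.6, 154 and 152 CPM in HSF1 and 49.6 and 41.9 CPM in cycling HSF2, with no mitotic HSF2 peak. The non-treated mitotic IgG list splits it into 23 peaks and heat-treated mitotic IgG has 1 peak there. At chr1:228743478-228782887 (39410 bp) levels were 128, 240 and 391 CPM in non-treated cycling, non-treated mitotic and heat-treated mitotic IgG. HSF1 had 87.1 CPM in non-treated cycling and 280 CPM in heat-treated mitotic cells, and HSF2 had 9.69 CPM in non-treated cycling and 307 CPM in non-treated mitotic cells. Each value throughout is the sum of tags that a list places in its own peaks, whose widths are not the same from list to list, and a missing value is a peak that was not called. A peak counts whole at each region it meets, also where it reaches past the region. That held for no IgG peak, by construction, and for 9.87% (heat-treated mitotic HSF1) to 55.0% (heat-treated mitotic HSF2) of the HSF peaks at recurrent regions, of whose bases 86.3% to 97.9% lay inside.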

How the data were processed

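Sonicated, cross-linked chromatin of K562 cells was precipitated with HSF1, HSF2 or IgG antibodies and sequenced, per the labels' protocols. Bowtie, MACS 1.4 and hg19 are named in the submitters' processing notes. Per the file headers, MACS 1.4.1 was used with a p cutoff of 1e-05 and a fragment size of 200 bp, and duplicates were capped at 1 or 2 tags per position. The authors deposited, for each peak, the counts of tags, a score (minus 10 times log10 of the p-value), a fold (ratio of ChIP to input tags) and an FDR in percent. The 12 lists hold 117699 peaks. The 2 inputs were used through the lists alone.

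GenBank chromosome names of 1 list were converted, the 63692 IgG peaks were merged at 1 bp overlap, and tags per region were summed over all of a list's peaks that met it, each counted whole, and divided by its kept tags. Chromosome extent means the last position that a peak reaches. With 1 library per group no test was run. The merging recovered 188 of 188 regions planted in 400 simulated ones, and region counts equalled those of bedtools 2.31.1. Work was done in Python 3.11.15 with matplotlib 3.10.9, pandas 2.3.3, scipy 1.17.1 and numpy 2.4.6.

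Named regions are those in all 12 lists (the text gives examples and summaries), the 10 with the highest level in their lowest IgG library, 3 without an HSF peak, those with an HSF peak of fold at least 10, the widest, and the one with the most tags. Runs, and the chromosome 15, 16 and 5 examples, were chosen after values were seen. The members and lists were chosen with earlier results of these data known. Alternatives covered the number of IgG lists, score, FDR, fold, list length, overlap rule, tag measure, chromosome 22, width and leaving out each IgG library. No sequence is printed and no gene is named, because the tables at hand are of another build than hg19 and were not used here.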

Additional observations from a re-analysis of the deposited data

Results flagged for a closer look

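In the lists as deposited, the number of recurrent IgG regions with an HSF2 peak differed between treatments in opposite directions in cycling and mitotic cells. With HSF1 the number was lower with heat in cycling cells and nearly the same in mitotic cells. For HSF1 the heat-treated minus non-treated difference was -81 in cycling cells (487 to 406 regions) and 2 in mitotic cells (554 to 556). For HSF2 it was 109 in cycling cells (199 to 308) and -189 in mitotic cells (579 to 390). These differences were not tested, since each count comes from 1 library. Over all merged IgG regions the HSF2 shares went the same ways, from 0.897% to 2.09% in cycling and from 10.3% to 5.8% in mitotic cells. The HSF1 shares there were 3.06% and 3.0% in cycling and 3.63% and 4.15% in mitotic cells. The HSF2 counts come with kept tags of 28676943 and 19476014 in cycling and 14782391 and 28299989 in mitotic cells, so in both states the deeper HSF2 library had fewer of these regions. For HSF1 the kept tags were 14446547 and 16735990 in cycling and 6164898 and 7385467 in mitotic cells. With all HSF lists cut to the length of the shortest by score, the share went from 28.3% to 14.5% in cycling and from 44.4% to 37.1% in mitotic cells for HSF2, and from 39.3% to 10.7% and from 35.1% to 34.7% for HSF1. Both HSF2 shares were then lower with heat, so the opposite directions of HSF2 were not kept at equal list length. The HSF1 share was lower with heat in cycling cells and again nearly the same in mitotic cells. The part of depth in these counts was not tested.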

How the results depend on the processing

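The order non-treated cycling, heat-treated cycling, non-treated mitotic, heat-treated mitotic is kept, with HSF1 before HSF2. The 703 recurrent regions became 3058 with a peak in at least 2 IgG lists, 181 with all 4, 295 with a score of at least 100, 409 with an FDR of at most 5% and 298 with IgG lists cut to equal length by score. Leaving out 1 IgG library gave 244 to 469 regions. Shares of recurrent regions with an HSF peak were 90.1%, 83.4%, 96.7%, 97.8%, 41.4%, 68.0%, 97.2% and 68.5% in regions of all 4 IgG lists. With an HSF fold of at least 5 they were 0.996%, 2.42%, 0.284%, 0.142%, 4.12%, 2.99%, 1.85% and 7.11%. With HSF lists of equal length by score they were 39.3%, 10.7%, 35.1%, 34.7%, 28.3%, 14.5%, 44.4% and 37.1%. Among regions of up to 2 kb, chosen after seeing the data, they were 58.9%, 50.0%, 67.8%, 66.1%, 13.7%, 38.4%, 72.3% and 40.4%. Without chromosome 22, also chosen after seeing the data, they moved to 79.2% and 50.4% for mitotic HSF2. Leaving out 1 IgG library (all 3 others required) gave 74.0% to 85.0%, 62.7% to 72.4%, 77.4% to 94.5%, 80.6% to 94.7%, 31.7% to 38.6%, 50.1% to 63.8%, 81.1% to 94.1% and 47.6% to 67.8%. Shares of a list's peaks inside the regions with a fold of at least 5 were 1.36%, 66.7% (2 peaks inside, 1 outside) and 2.70% for HSF1 after the first list. For HSF2 these shares were 21.7%, 2.31%, 24.1% and 8.32%. With a fold of at least 10 they were 0.0%, 0.0% and 0.0% for HSF1 (non-treated mitotic HSF1 has no such peak) and 0.0%, 1.28%, 50.0% and 20.0% for HSF2. With the single peak of most tags, median CPM was 3.50 and 4.36 in heat-treated cycling and non-treated mitotic IgG, 4.01, 4.06, 3.57 and 3.93 in HSF1, and 5.34 and 5.30 in mitotic HSF2. With total tags as library size it was 2.76, 3.44 and 5.65 in non-treated cycling, non-treated mitotic and heat-treated mitotic IgG, 3.55 and 4.14 in mitotic HSF1 and 5.45 in non-treated mitotic HSF2. For ratios, total tags were an alternative added after seeing the data, and they are not on one scale across lists. With them, HSF to IgG ratios turned to 1.33, 1.01 and 1.32 (non-treated cycling and mitotic HSF1, non-treated cycling HSF2) and moved to 0.646, 1.51 and 0.811. Mitotic to cycling ratios turned to 0.807 (non-treated HSF1) and moved to 1.07, 1.37, 1.16, 1.39 and 1.38. Heat to non-treated ratios turned to 1.37 (cycling IgG) and 1.01 (mitotic HSF2) and moved to 1.63 and 1.10 in mitotic IgG and HSF1. The remaining 44 alternative values moved by less than their intervals or by less than 1.5 times; among them are all 8 shares under each of the other overlap rules. No paired analysis was possible because each group has 1 library. Depth limits the lists: the shallow IgG library has no level under 2.90 CPM at these regions.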
